A study of Mus musculus with 102 samples.

Results

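The collagen genes examined here are all genes on the array whose single symbol is Col, a number, the letter a and a number. They comprise 42 of the 18193 genes with a probe set that names 1 gene, and 82 of the 45037 probe sets without controls. Each gene is represented by the probe set of highest mean over 48 regions, all those of brain and spinal cord. Of the 42 genes, 15 have 1 probe set and 27 have several, and every one of the 42 entered the tests, since no filter on low values was applied. Each array holds RNA of 1 region of the central nervous system (CNS) from untreated adult male Balb/c mice aged 7 to 8 weeks, under a light/dark cycle or in constant darkness, pooled over animals and over 6 times of day 4 h apart. The groups set first are the supraoptic nucleus (SO), the median eminence (ME) and the suprachiasmatic nucleus (SCN) of the hypothalamus, with 2 arrays each, and they are compared with the other 45 regions, with 90 arrays. The retina, pituitary and pineal, with 2 arrays each, were kept apart. A region was punched out of a frozen slice, so an array can hold vessels and surface tissue besides the nucleus, and a pool gives no value for a single animal. A lower value can stand for fewer cells of a type or for less RNA per cell, which cannot be told apart in such samples.

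Collagens are secreted or membrane-bound proteins whose chains wind into triple helices, so that several genes are often needed for 1 molecule. Fibrillar collagens (types I, II, III, V, XI, XXIV and XXVII) build the fibrils of connective tissue, type IV collagens the network of basement membranes, and the FACIT collagens, such as types IX, XII and XIX, sit on fibrils. Type VI collagen forms beaded filaments, type VIII a network found in the eye and in vessels, types XIII, XVII, XXIII and XXV span the cell membrane, and types XV and XVIII are basement membrane proteins with sugar side chains. In the adult brain, fibrils are found mainly in the meninges and around large vessels, while basement membranes line all vessels and the brain surface.

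Values are log2 expression values of the RMA method, in which a difference of 1 is a doubling. The medians of the 96 arrays of the 48 regions lay between 7.32 and 7.46, the 2 arrays of a region had a Pearson's r of 0.9884 to 0.9973 over all probe sets, and the median residual SD was 0.12. There are no counts behind array values, so the precision rests on how many arrays there are. The labels of the 3 regions were set against their defining genes. The vasopressin gene *Avp* was at 14.31 and 14.44 in SO, against a mean of 7.81 in the other 45 regions. The retinal homeobox gene *Rax*, a gene of tanycytes, was at 6.69 and 6.81 in ME, against 5.44, which is low on both sides, and *Adm*, also listed for ME, at 8.84 and 9.19, against 7.75. *Fgf10*, the remaining gene listed for ME, was not higher there, with 6.85 and 6.63 against 6.73. *Vip*, a peptide of SCN neurons, was at 13.76 and 13.72 in SCN, against 7.19. The labels place SO, ME and SCN in different sampling periods.

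All collagen genes but *Col6a5* differed among the 48 regions in a limma model with 1 coefficient per region (41 of 42, adjusted p under 0.05), where 93.1% of all genes did. The size of the variation was uneven. The range between the highest and the lowest regional mean was 4.9 for *Col23a1*, 4.13 for *Col19a1* and 4.04 for *Col3a1*, and it was under 1 for 16 genes, with 0.3 for *Col6a5*. The 2 arrays of a region differed by a median of 0.08 to 0.23, depending on the gene. Divided by the region of their highest mean, 19 genes were highest in SO, ME or SCN and 23 in another region. This division uses the measured values and is a description. Where a gene named below was picked by its difference, its adjusted p is not independent of that choice. Of the 19, 7 were highest in SO, 11 in ME and 1, *Col11a2*, in SCN. Of the 23, 9 were highest in the telencephalon, 4 in other hypothalamic regions, 4 in the pons, 3 in the cerebellum and 3 in the thalamus. In either replicate alone, 37 of the 42 genes fell on the same side both times, 12 of them in SO, ME or SCN and 25 elsewhere. The 25 include *Col4a3* and *Col20a1*, which are among the 19 by their mean over both replicates. So 12 of the 19 kept their side in both replicates, as did all of the 23. The exact region was less stable, with 18 genes highest in the same region in both replicates, and for 19 genes the highest region led the next by under 0.1. Of the 27 genes with several probe sets, 20 had all of them on the same side.

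In the mean of SO, ME and SCN, 23 of 42 collagen genes (54.8%) were higher than in the mean of the other 45 regions (limma, adjusted p under 0.05), where 27.8% of all genes were, and 2 of 42, *Col10a1* and *Col19a1*, were lower, where 25.5% of all genes were. The median difference was 0.14 over the collagen genes and -0.01 over all genes. Against the other 9 hypothalamic regions, 23 collagen genes were higher (background 21.3%) and 2, *Col11a1* and *Col19a1*, lower (background 22.9%). Both comparisons use the same 6 arrays of SO, ME and SCN. Of the 11 fibrillar collagen genes, 7 were higher and none lower than in the other 45 regions, with a median difference of 0.15. Of the 6 type IV genes, 4 were higher (median 0.38), and of the 4 transmembrane genes, 3 were (median 0.51). Of the 9 FACIT genes, 4 were higher and 1 lower (median 0.11), and of the 10 other network and filament genes, 5 were higher and 1 lower (median 0.21). Neither multiplexin gene, *Col15a1* or *Col18a1*, passed the test, with 0.07 and 0.04. Without replicate 2 of ME or without replicate 1 of SCN, 1 gene was lower than in the other 45 regions instead of 2.

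Of the fibrillar collagen genes, *Col3a1* and *Col1a2* had the largest differences in the mean of the 3 regions, by the probe sets used. *Col3a1*, the gene of type III collagen (probe set 1427883_a_at), was at 9.48 and 9.88 in SO, 9.63 and 9.9 in ME and 8.31 and 8.85 in SCN, while the 90 other arrays ran from 5.57 to 8.07 with a median of 6.22. The 6 arrays lay above all 90 others. The mean of the 3 regions was higher by 2.89 (standard error 0.1, adjusted p = 2.55e-32 from limma). SO and ME did not differ beyond their error (SO minus ME -0.08, adjusted p = 0.82), and both were above SCN, SO by 1.1 (adjusted p = 0.000116) and ME by 1.18 (adjusted p = 5.55e-05). *Col1a2*, which encodes a chain of type I collagen (1450857_a_at), was at 11.01 and 10.88 in SO, 10.78 and 10.77 in ME and 10.29 and 10.67 in SCN, against 7.86 to 9.95 in the other 90 arrays (median 8.55). Again the groups did not overlap, which 2 of 42 collagen genes and 0.17% of all genes showed. The difference was 2.04 (standard error 0.07, adjusted p = 4.84e-31). SO and ME did not differ beyond their error (0.16, adjusted p = 0.503), and SO was above SCN by 0.46 (adjusted p = 0.0247). The next regions of *Col1a2* were the olfactory tubercle (Tu), with 9.95 and 9.65, and the arcuate nucleus (Arc), with 9.91 and 9.65, and Arc was also the next of *Col3a1*, with 8.07 and 7.73.

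The values of *Col1a2* and *Col3a1* moved together more closely than those of any other pair of collagen genes set side by side here, and their promoters are shown for that reason. Over the regional means of 48 regions Pearson's r was 0.94, and 0.88 over 45 without SO, ME and SCN. These points share their arrays and their cell makeup, so r is a description. RefSeq (GRCm38.p6) gives a window of 250 bases before to 50 after the start for 33 of the 42 collagen genes. Capitals mark the CCAAT box and its complement ATTGG, a motif bound by the factor NF-Y, searched on both strands. The *Col1a2* window (chr6:4505368-4505667, + strand) holds it once on each strand, and the *Col3a1* window (chr1:45311288-45311587, + strand) does not hold these letters.
Col1a2: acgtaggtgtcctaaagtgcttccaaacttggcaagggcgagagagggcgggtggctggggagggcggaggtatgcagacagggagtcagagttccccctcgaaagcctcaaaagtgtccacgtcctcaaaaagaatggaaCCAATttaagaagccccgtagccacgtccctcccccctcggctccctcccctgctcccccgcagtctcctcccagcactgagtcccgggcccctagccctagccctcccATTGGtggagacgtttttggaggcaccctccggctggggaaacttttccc
Col3a1: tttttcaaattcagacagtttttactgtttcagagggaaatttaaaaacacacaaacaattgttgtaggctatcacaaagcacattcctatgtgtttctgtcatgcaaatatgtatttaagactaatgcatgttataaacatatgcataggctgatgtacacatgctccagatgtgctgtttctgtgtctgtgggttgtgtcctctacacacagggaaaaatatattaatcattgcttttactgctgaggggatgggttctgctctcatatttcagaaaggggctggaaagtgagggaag
The motif was in 37.4% of the 32851 promoter windows of all genes and in 13 of the 33 collagen windows (39.4%), 6 of the 14 of genes highest in SO, ME or SCN and 7 of the 19 of genes highest elsewhere.

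*Col5a2*, a chain of type V collagen and the neighbour of *Col3a1* on chromosome 1, followed the same order with smaller differences. It was at 8.84 and 8.98 in SO, 9 and 9.22 in ME and 8 and 8.49 in SCN, where the other 90 arrays ran from 6.62 to 8.32 (median 7.34), so that 5 of the 6 arrays lay above all of them. The difference was 1.36 (standard error 0.06, adjusted p = 8.35e-27). The anterior olfactory bulb (OB anterior), with 8.32 and 8.2, ranked above SCN, and these did not separate beyond the spread of the SCN arrays. *Col6a2*, a chain of type VI collagen, was set apart by SO, with 11.13 and 10.88, against 10.16 and 10.08 in ME, 9.94 and 10.13 in SCN and 8.43 to 10.05 in the other 90 arrays (median 9.03). It was higher in SO than in ME by 0.89 (adjusted p = 1.98e-08), and ME and SCN did not differ beyond their error (0.08, adjusted p = 0.607). The mean of the 3 regions was higher by 1.3 (standard error 0.05, adjusted p = 5.3e-30). *Col1a1*, the partner chain of *Col1a2*, depended on its probe set. The one used, 1455494_at, was at 7.76 and 7.44 in SO, 7.02 and 7.15 in ME and 6.76 and 7.17 in SCN, against 6.31 to 7.6 in the others (difference 0.45, standard error 0.05, adjusted p = 9.18e-12). The other, 1423669_at, was at means of 8.31 in SO, 8.58 in ME and 7.92 in SCN and differed by 1.75 (adjusted p = 1.15e-29). The correlation of the first of these with *Col1a2* was 0.47 over 48 regions and 0.13 over 45.

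**Figure D1:**
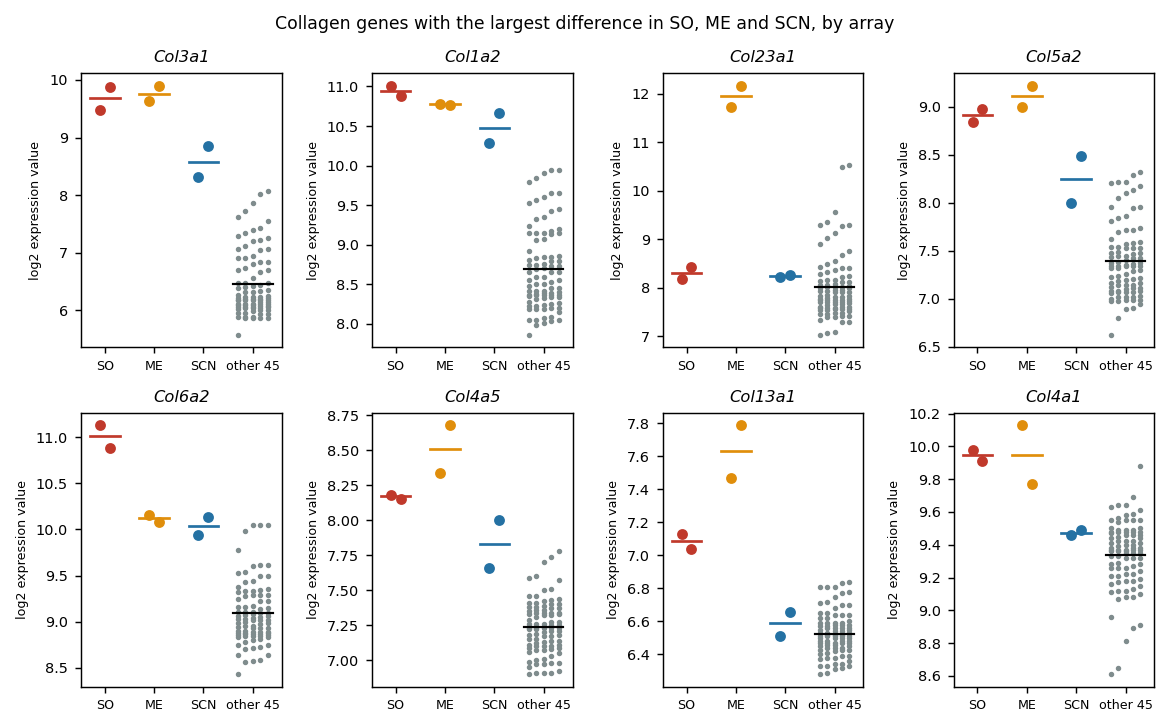
Log2 expression value (y axis) of 8 collagen genes in SO, ME, SCN and the other 45 regions (x axis). Coloured points are the 2 arrays of a region, grey points the 90 other arrays, and horizontal lines are means. *Col3a1* and *Col1a2* have all 6 arrays above the 90 others, while for *Col23a1* only the 2 of ME lie above them.

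All 6 type IV collagen genes were higher in ME than in the other 47 regions (median 0.83, background 25.2%), against 2 in SO (background 23.3%) and, in SCN, 2 higher and 2 lower (background 27.2% and 31.3%). *Col4a5* was at 8.18 and 8.15 in SO, 8.34 and 8.68 in ME and 7.66 and 8 in SCN, where the other 90 arrays ran from 6.9 to 7.78 (median 7.23). Only 1 array of SCN overlapped with them. The difference was 0.93 (standard error 0.05, adjusted p = 6.7e-23), and ME exceeded SO by 0.34 (adjusted p = 0.0227) and SCN by 0.68 (adjusted p = 1.2e-05). A second probe set, 1425476_at, had the same order, with means of 8.24 in SO, 9.59 in ME and 8 in SCN. Its partner gene *Col4a6*, next to it on chromosome X, was instead highest in the pontine nucleus (Pn), at 7.59, and r between the 2 genes over 48 regions was 0.23. *Col4a1* was at 9.98 and 9.91 in SO and 10.13 and 9.77 in ME, but at 9.46 and 9.49 in SCN, inside the range of the other arrays (8.61 to 9.88). Its SCN difference from the other 47 regions was 0.11 (adjusted p = 0.271). By its other probe set, 1452035_at, the mammillary body (M) was highest, at 10.08, with ME at 9.98 and SO at 9.94. *Col4a2*, the partner chain, was at 8.73 and 9.1 in SO, 9.89 and 10.05 in ME and 9.09 and 9.25 in SCN, against a median of 8.93 over the 90 others. It was higher than in the other 47 regions in ME by 1.06 (standard error 0.1, adjusted p = 2.22e-13) and in SCN by 0.25 (adjusted p = 0.0369), while SO was at -0.02 (adjusted p = 0.911). *Col4a4* was at 7.09 and 7.48 in ME, above all 90 other arrays (5.82 to 6.66), and its neighbour and partner *Col4a3* was at 8.08 and 8.04, within their range.

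*Col4a1* and *Col4a2* lie head to head on chromosome 8 and are read in opposite directions from a shared promoter, which is shown because the regional means of both genes moved together (r = 0.8 over 48 regions and 0.86 over 45). Their RefSeq windows, chr8:11312777-11313076 on the - strand for *Col4a1* and chr8:11312555-11312854 on the + strand for *Col4a2*, overlap by 78 bases, chr8:11312777-11312854, which are in capitals.
Col4a1: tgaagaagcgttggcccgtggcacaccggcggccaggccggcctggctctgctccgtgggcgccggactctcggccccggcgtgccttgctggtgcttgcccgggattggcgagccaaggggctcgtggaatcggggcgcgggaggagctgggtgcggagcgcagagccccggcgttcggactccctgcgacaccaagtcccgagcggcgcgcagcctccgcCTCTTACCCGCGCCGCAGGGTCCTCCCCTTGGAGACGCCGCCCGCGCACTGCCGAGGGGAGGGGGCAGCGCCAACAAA
Col4a2: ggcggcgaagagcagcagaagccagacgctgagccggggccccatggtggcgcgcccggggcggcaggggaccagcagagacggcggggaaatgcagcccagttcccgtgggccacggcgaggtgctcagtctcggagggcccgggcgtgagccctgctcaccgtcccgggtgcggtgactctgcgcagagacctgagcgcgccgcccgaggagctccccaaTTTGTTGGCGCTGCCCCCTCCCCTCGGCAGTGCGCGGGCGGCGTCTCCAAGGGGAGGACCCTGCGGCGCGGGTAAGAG
Of 7 pairs of collagen genes that are neighbours in RefSeq, 4 fell on the same side of the division by highest region and 3 did not. Of these 3, *Col4a5* with *Col4a6* and *Col9a1* with *Col19a1* had r of 0.23 and 0.03 over 48 regions. *Col6a1* and *Col6a2*, neighbours on chromosome 10, had r of 0.76 over 48 regions and 0.85 over 45, although their highest regions fell on different sides.

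Of the 4 transmembrane collagen genes, 3 were higher in ME than in the other 47 regions (background 25.2%), 1 in SO (background 23.3%) and none in SCN (background 27.2%). *Col23a1* was at 11.73 and 12.17 in ME, 8.18 and 8.43 in SO and 8.23 and 8.27 in SCN, and the other 90 arrays ran from 7.03 to 10.53 (median 7.84). ME exceeded the other 47 by 3.92 (standard error 0.11, adjusted p = 1.39e-35), and SO and SCN by 0.2 and 0.15 (adjusted p = 0.153 and 0.272), which did not pass the test. Arc was next, at 10.5 and 10.53, then the posterior amygdala (A posterior), at 9.29 and 9.57. The other 2 probe sets gave the same 3 regions in the same order, with ME at 10.95 and 11.05. *Col13a1* was at 7.47 and 7.79 in ME, 7.13 and 7.04 in SO and 6.51 and 6.66 in SCN, against 6.28 to 6.84 (median 6.51) in the others. Both ME and SO lay above all other arrays and SCN within them, and ME exceeded SO by 0.54 (SO minus ME -0.54, adjusted p = 1.71e-05). *Col25a1*, whose protein was found in amyloid plaques in human brain, was at 9.85 and 9.81 in ME, 8.92 and 8.7 in SO and 8.7 and 8.66 in SCN, with Arc next at 9.2 and 9.29. Its ME difference was 1.16 (standard error 0.07, adjusted p = 6.64e-20). Its other probe set, 1438540_at, also had ME first, at 11.57, but the lateral septum (LS), at 11.15, and the mediodorsal thalamic nucleus (MD), at 11.04, close behind. *Col17a1*, of the anchoring complexes of skin, varied little, with a range of 0.45 over the regional means.

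Other members had the following values. *Col22a1*, a FACIT gene, was at 7.28 and 6.99 in SO, 6.58 and 6.76 in ME and 6.53 and 6.72 in SCN, against 6.31 to 7.25 in the other 90 arrays (median 6.71), so that 1 array of SO lay above all of them. SO differed from the other 47 regions by 0.43 (adjusted p = 1.88e-05), but its other probe sets did not show this, with means of 6.66 and 5.88 in SO, against 6.67 and 5.77 in the other 45 regions, and were highest in the dentate gyrus (DG). *Col12a1* was at 8.78 and 8.62 in SO, 8.51 and 8.25 in ME and 8.48 and 8.62 in SCN, against 8.17 to 8.71 in the others (SO difference 0.29, adjusted p = 0.000271). Its probe set 1434411_at was highest in Tu, at 6.85, with means of 6.81 in SO, 5.97 in ME and 6.74 in SCN, against 5.78 in the other 45 regions. The mean of the 3 regions differed by 0.73 there (adjusted p = 1.32e-17), and by -0.01 and 0.02 for 1440101_at and 1445751_at. *Col16a1* had its highest mean in the medial vestibular nucleus (MVe), with 9.05 and 8.89, and SO, with 8.96 and 8.82, overlapped with it. Of the network-forming genes, *Col8a1* was at 7.78 and 7.4 in SO, 7.36 and 7.26 in ME and 6.66 and 6.69 in SCN, with the next region, the hippocampal fields CA2 and CA3 (CA2/CA3), at 7.35 and 7.58. It was higher in SO by 0.73 (adjusted p = 4.53e-10) and in ME by 0.44 (adjusted p = 3.42e-05), and SCN differed by -0.2 (adjusted p = 0.047). Its other probe sets, with means of 6.58 and 5.29 in SO, against 6.5 and 4.92 in the other 45 regions, were highest in the lateral caudate putamen and in the dorsal subparaventricular zone (SPa dorsal). *Col10a1*, the collagen of hypertrophic cartilage, was low in SCN alone of the 3, with 6.69 and 6.93 in SCN, 7.33 and 7.27 in SO and 7.53 and 7.05 in ME, and its call in the mean of the 3 regions (-0.17, adjusted p = 0.00478) rested on SCN (-0.5, adjusted p = 5.42e-06). *Col15a1* and *Col27a1* were higher in ME, by 0.35 (adjusted p = 8.85e-05) and 0.59 (adjusted p = 6.61e-09), and not in SO, with -0.02 and 0.06 (adjusted p = 0.837 and 0.6).

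By single region, ME had 25 collagen genes higher than the other 47 regions and 1, *Col19a1*, lower (background 25.2% and 21.2%), with a median difference of 0.29 against 0.01 over all genes. SO had 21 higher and 2 lower, *Col11a1* and *Col19a1* (background 23.3% and 24.4%), with a median of 0.22 against 0.02. SCN did not share this. It had 11 higher, which is 26.2% where 27.2% of all genes were higher, and 12 lower (background 31.3%), with a median of -0.04 against -0.05. With cyclic loess normalization the SCN split was 11 higher and 7 lower, and without replicate 1 of SCN 10 and 4. The 11 were *Col1a2*, *Col3a1*, *Col4a2*, *Col4a5*, *Col5a2*, *Col6a1*, *Col6a2*, *Col8a2*, *Col9a2*, *Col9a3* and *Col11a2*. The last of these, a chain of type XI collagen, was at 8.65 and 8.78 in SCN, 7.78 and 7.79 in both SO and ME, and 7.01 to 8.37 in the other 90 arrays (SCN difference 0.98, standard error 0.08, adjusted p = 1.34e-15). Among regions of the same sampling period, SO had 22 higher and 1 lower, ME 19 and 0, and SCN 12 and 7. For these counts, and for those with cyclic loess normalization or an array left out, no share of all genes is given. They cannot be set against a background. Without either array of SO 1 gene was lower there instead of 2, and without replicate 1 of ME none was lower there.

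Between SO and ME the counts were near the shares of all genes. In SO, 7 (16.7%, background 17.8%) were higher than in ME, *Col1a1*, *Col6a2*, *Col8a2*, *Col12a1*, *Col16a1*, *Col20a1* and *Col22a1*, of which 4 are FACIT genes. Of the 9 FACIT genes, 7 were higher in SO than in the other 47 regions (background 23.3%) and 2 in ME (background 25.2%). Lower in SO than in ME were 11 (26.2%, background 22.3%), among them *Col4a2*, *Col4a4*, *Col4a5* and the 3 transmembrane genes named above. Without replicate 1 of SO these counts were 3 and 7, and without replicate 2 of ME 4 and 9. Compared with SCN, 22 were higher in SO (background 30.3%) and 23 in ME (background 22.9%), and 3 were lower in each (background 28.3% and 19.7%), with *Col9a3* and *Col11a2* in both. Without replicate 1 of SCN, 13 were higher in SO than in SCN. These comparisons share arrays.

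**Figure D2:**
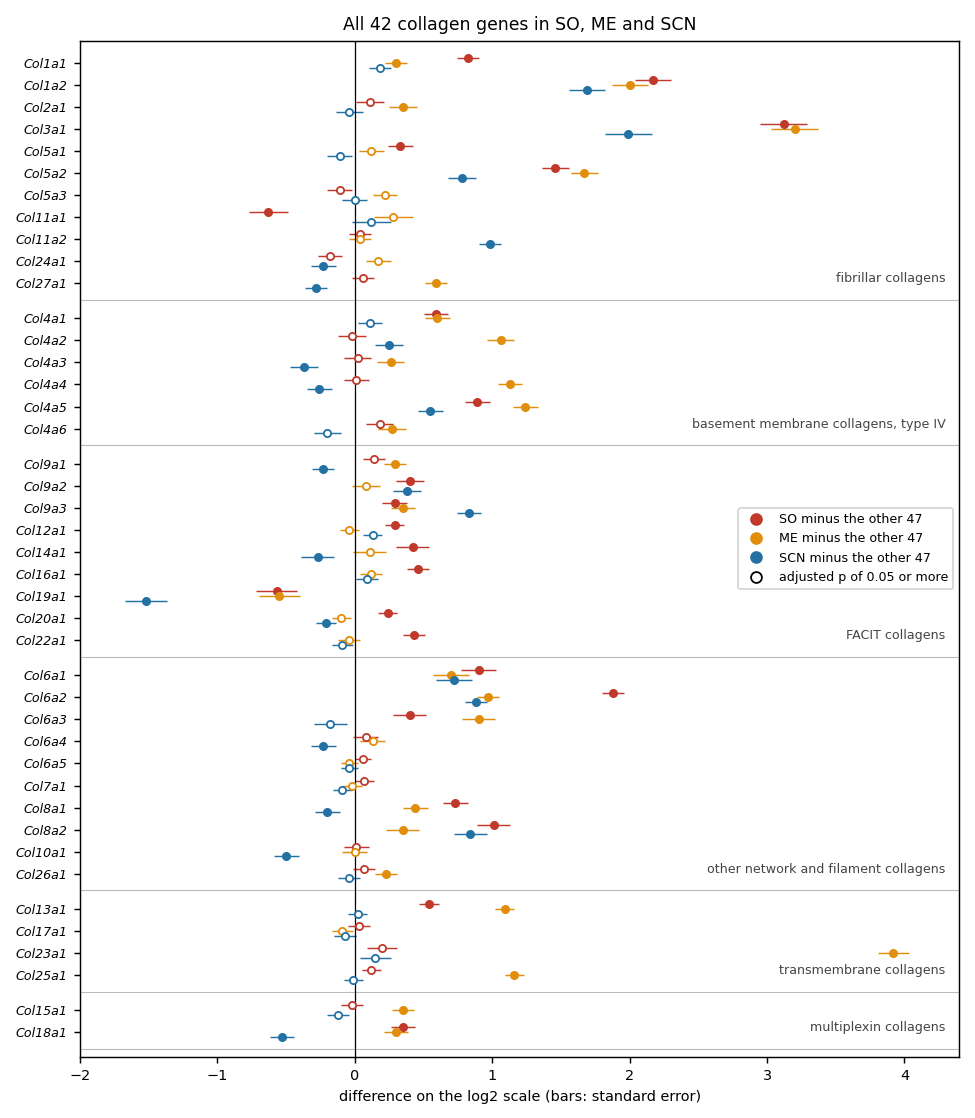
Difference of SO, ME and SCN from the mean of the other 47 regions (x axis, log2 scale, bars are standard errors) for all 42 collagen genes (y axis), grouped by structural family. Filled points have a limma adjusted p under 0.05. All 6 type IV genes are filled and right of 0 in ME, and *Col19a1* lies left of 0 in all 3 regions.

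Outside these 3 regions the collagen calls were spread. Arc and Pn had 14 genes higher each (33.3%, background 20.3% and 23.6%). A posterior and SPa dorsal had 10 (23.8%, background 15.7% and 20.6%). In the ventral thalamic nuclei VA/VL and VPM/VPL no collagen gene was higher, where 14.2% and 13.3% of all genes were. Of the 48 regions, the hippocampal field CA1 had the highest number of lower collagen genes, 20 of 42, where 26.1% of all genes were lower.

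**Figure D3:**
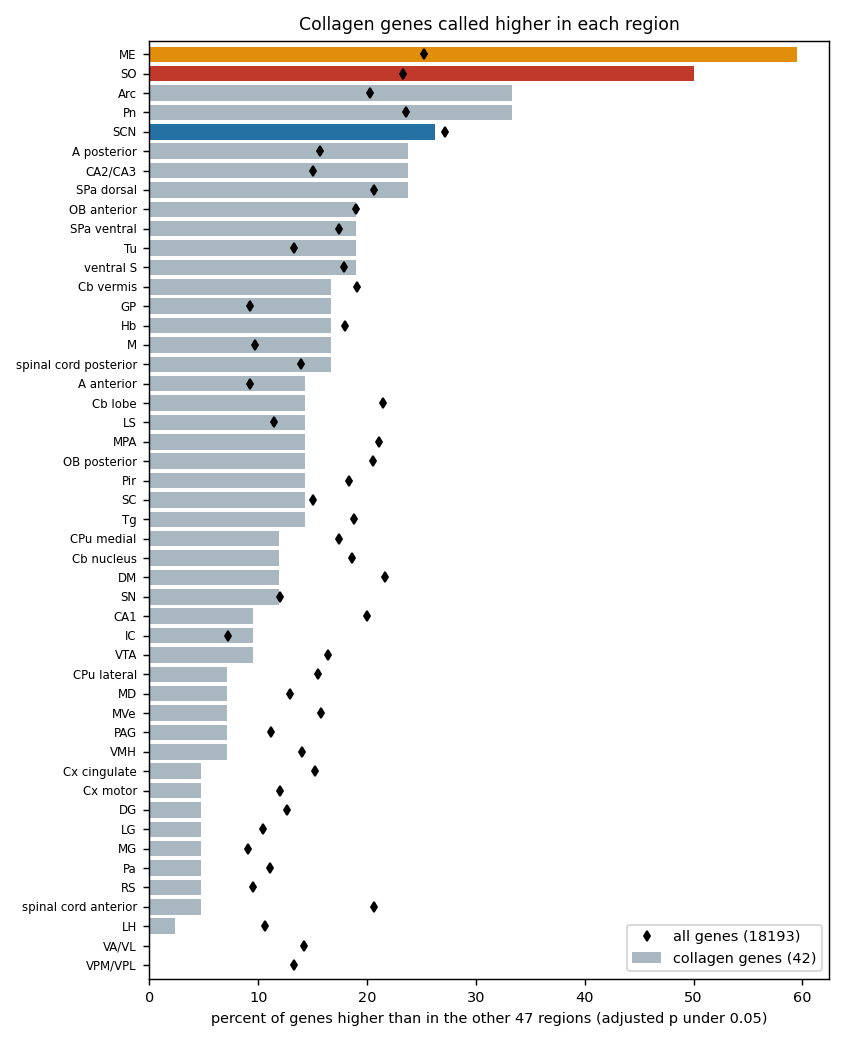
Percent of the 42 collagen genes (bars) and of all 18193 genes (diamonds) that were higher in a region than in the mean of the other 47 (x axis, limma adjusted p under 0.05), for 48 regions (y axis). The bar of ME reaches 59.5% and that of SCN, at 26.2%, ends left of its diamond.

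Genes that mark several cell types moved with these regions, and their part in the collagen differences was not tested. Of all genes, 23.3% were higher in SO, 25.2% in ME and 27.2% in SCN than in the other 47 regions. Lower were 24.4%, 21.2% and 31.3%, and marker counts near these shares are no more than all genes show. Of 17 leptomeningeal markers, genes of the cells of the pia and arachnoid, 17 were higher in SO, 17 in ME and 16 in SCN than in the other 47 regions, by medians of 2.66, 1.79 and 1.12. The median deviation of the list from the 48-region mean was 2.6 in SO, 1.75 in ME and 1.09 in SCN, and -0.72 to 1.09 in the other 45 regions, with the highest value in Tu. *Islr* was at 11.37 and 11.44 in SO, 11.68 and 11.82 in ME and 10.1 and 9.75 in SCN, against a mean of 7.8 elsewhere. *Mgp*, *Igf2* and *Aldh1a2* differed by 2.57, 2.55 and 2.54 in the mean of the 3 regions. Endothelial markers were higher in SO (11 of 12, with 1 lower, median 0.78), in ME 6 of 12 were higher and 2 lower (median 0.18) and in SCN 1 and 1, and 8 of 10 mural cell markers were higher in SO, 4 in ME and 4 in SCN. Oligodendrocyte markers were higher in SO (8 of 8, median 1.63) and SCN (8 of 8, median 1.69), and 5 of 8 were lower in ME (median -0.55). Of 9 astrocyte markers, 6 were higher and 2 lower in SO, 3 higher and 4 lower in ME and 7 higher in SCN. All 8 ependymal markers were higher in ME (median 0.58), 1 was higher and 4 lower in SO, and 2 were higher and 2 lower in SCN. Of 7 measured anterior pituitary markers, 5 were higher in ME (median 1.14), with *Cga*, a hormone subunit, at 12.49 and 12.75 in ME, against a mean of 6.7 in the other 45 regions. The hormone genes *Gh* and *Prl* were not higher in ME, with 0.27 and 0.08 (limma adjusted p = 0.132 and 0.439). *Pomc*, which was, had its highest mean in Arc, at 12.98, with ME at 12.24. In SO 1 of the 7 was higher, and in SCN 1 was higher and 5 lower (median -0.24). Neuron markers were lower, 9 of 9 in SO and in ME and 6 of 9 in SCN.

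Over the 45 regions without SO, ME and SCN, 2 collagen genes followed the leptomeningeal list closely. Pearson's r between the regional mean and the median of the list was 0.92 for *Col3a1* and 0.9 for *Col1a2*, and then 0.54 for *Col13a1*, 0.48 for *Col5a2* and *Col6a2*, 0.47 for *Col4a5* and 0.44 for *Col23a1*. The median over the 19 genes highest in SO, ME or SCN was 0.27, with 3 above 0.5, and that over the 23 highest elsewhere was 0.15, with 1 above 0.5, *Col27a1* (0.55). With other lists, values above 0.5 among the 19 were those of *Col1a2* (0.58), *Col3a1* (0.54) and *Col4a5* (0.54) with astrocyte markers, *Col11a2* (0.62) with oligodendrocyte markers and *Col4a3* (0.61) with anterior pituitary markers. *Col4a1* and *Col4a2* had r of 0.06 and -0.09 with the leptomeningeal list, and *Col25a1* -0.13. These values are over regions that share arrays and processing and are a description.

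**Figure D4:**
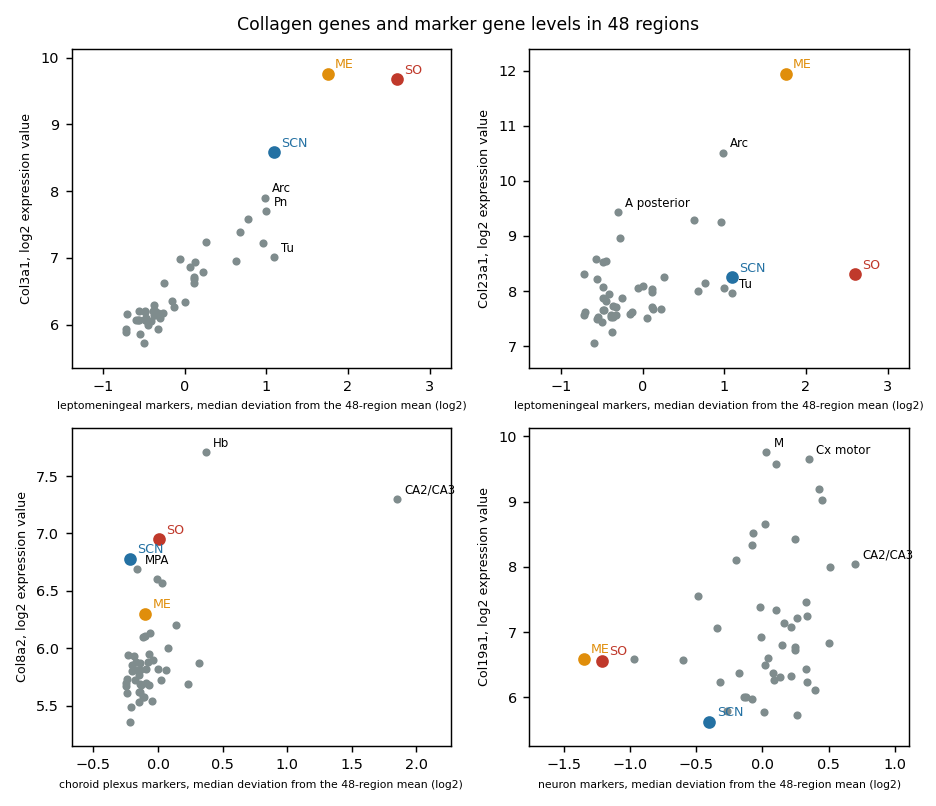
Log2 expression value of 4 collagen genes (y axes) against the median deviation of a marker list from the 48-region mean (x axes), 1 point per region and the mean of 2 arrays. *Col3a1* and the leptomeningeal list are both high in SO, ME and SCN. The list is higher in SO than in ME, and *Col3a1* is not. *Col23a1* is high in ME and Arc and not in SO, and *Col8a2* is high in Hb and CA2/CA3.

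Lists of other genes of the collagen pathway are set against the shares of all genes, 27.8% higher and 25.5% lower in the mean of SO, ME and SCN. Of 28 measured genes of collagen synthesis and processing, 20 were higher and 1 lower in the mean of the 3 regions than in the other 45 (median 0.37). *Pcolce*, which aids the removal of the propeptide of fibrillar collagens, was at 11.09 and 10.86 in SO, 9.63 and 9.92 in ME and 8.96 and 9.16 in SCN, against 7.45, a difference of 2.49 (adjusted p = 2.02e-29). *Loxl1*, of the enzymes that cross-link fibres, differed by 1.34 and was highest of the 3 in ME, at 8.92 and 9.4, and *P3h4*, of the lysine hydroxylation complex, by 1.23. *Adamts3*, a procollagen protease, was lower, with -1.13 (adjusted p = 1.68e-16). Of 10 collagen receptor genes, 8 were higher (median 0.43), while in SCN alone 5 were higher and 3 lower (background 27.2% and 31.3%). Among them were *Ddr1* at 10.45 and 10.31 in SO, 9.98 and 10.1 in ME and 11.04 and 11.08 in SCN (mean elsewhere 9.63), and *Ddr2* at 9.82 and 9.71 in SO, 8.7 and 8.68 in ME and 8.19 and 8.12 in SCN (mean elsewhere 8.12). *Itgb1*, an integrin chain, and *Itga1*, its partner, differed by 0.79 and 0.5. Of 10 genes of collagen breakdown, 6 were higher and 1 lower (median 0.4), among them the inhibitor gene *Timp3* by 1.6 and the protease genes *Mmp2* and *Mmp14* by 0.92 and 0.71. Of 11 basement membrane genes other than collagens, 8 were higher (median 0.53), with the laminin genes *Lama4*, *Lama2* and *Lamb2* by 1.1, 1.04 and 1.04 and *Nid1* by 0.99.

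A second set of collagen genes had its highest level far from these regions. For these genes the region was picked by its value, so differences are given with their standard error and without a test. *Col19a1*, a FACIT collagen, was highest in M, with 9.31 and 10.21, and the motor and cingulate cortex (Cx motor, Cx cingulate), with 9.89 and 9.42 and with 9.9 and 9.26, and these 3 did not separate beyond their spread. The retrosplenial cortex (RS), at 9.24 and 9.17, and CA1, at 8.95 and 9.1, followed. SCN was the lowest of the 48 regions, with 5.52 and 5.75, where SO had 6.93 and 6.19 and ME 6.5 and 6.67. All 3 of its probe sets had SCN lowest, and their 3 highest regions lay among M, Cx motor, Cx cingulate and RS. The mean of SO, ME and SCN was lower than that of the other 45 regions, at -0.92 (standard error 0.09, adjusted p = 6.34e-13 from limma). Those 45 include M and the cortical regions, so this comparison is not independent of the choice of gene. SO and ME ranked 31 and 29 of the 48 regions. For *Col19a1*, r over the 45 regions was 0.24 with the neuron markers and 0.05 with the leptomeningeal list.

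*Col11a1*, a chain of type XI collagen, peaked in the hippocampus. It was at 10.07 and 10.27 in CA2/CA3, which exceeded the other 47 regions by 2.4 on average (standard error 0.14), then at 9.52 and 9.54 in CA1, and at 9.27 and 9.53 in the ventral tegmental area (VTA). CA2/CA3 lay above the arrays of CA1, while the arrays of CA1 and VTA met. Both probe sets gave these 3 regions in this order. The cerebellar cortex lobe (Cb lobe) was lowest, at 6.65 and 6.54. SO, with 6.87 and 7.54, differed from the other 47 regions by -0.63 (adjusted p = 0.00027). Its 2 arrays differed widely, and the difference was -0.29 (adjusted p = 0.289) without replicate 1 of SO and -0.2 (adjusted p = 0.299) among regions of its own sampling period. SCN, with 7.99 and 7.88, differed by 0.12 from the other 47 regions (adjusted p = 0.485) and by -0.58 from those of its own period. *Col24a1*, a fibrillar collagen, was at 5.65 and 6.08 in OB anterior and 5.33 and 5.22 in the posterior olfactory bulb (OB posterior), and Arc followed at 4.8 and 5.2. Both arrays of OB anterior lay above all others, Cb lobe was lowest, at 4.18 and 4.25, and all its regional means were under 7.

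*Col18a1*, whose protein carries the endostatin fragment, was highest in the cerebellar cortex and Pn. Its arrays were at 10.42 and 10.47 in Cb lobe, 10.23 and 10.34 in the cortex of the vermis (Cb vermis) and 10 and 10.29 in Pn, and the next region, the habenular nucleus (Hb), was at 8.7 and 8.91. Cb lobe exceeded the other 47 regions by 2.48 on average (standard error 0.09), and the cerebellar nucleus ranked 14 of 48, at a mean of 8.04, and MVe, the other region of the pons, 29, at 7.74. SO and ME were higher than the other 47 regions by 0.35 and 0.3 (adjusted p = 0.00119 and 0.00537) and SCN was lower, with -0.53 (adjusted p = 2.45e-06). Pn was the highest region of *Col14a1*, at 7.55 and 7.48, *Col27a1*, at 9.97 and 10.17, and *Col4a6* as well, the last by a lead of 0.06. Another probe set of *Col27a1*, 1429549_at, was highest in Cb vermis, at 10.18, with Pn at 10.09. Probe set 1453931_at of *Col14a1* was highest in SO, at 6.01, and 1421007_at of *Col4a6* in the superior colliculus, at 6.1. *Col6a1*, a chain of type VI collagen, was at 10.37 and 10.54 in the ventral subiculum (ventral S), 10.4 and 9.97 in the medial caudate putamen (CPu medial), 10.09 and 9.99 in Tu and 9.98 and 10.07 in OB anterior, and 7.25 and 7.63 in CA1, the lowest. It was also higher in the mean of SO, ME and SCN by 0.81 (standard error 0.08, adjusted p = 2.01e-13), with 9.57 and 9.49, 9.39 and 9.29, and 9.23 and 9.47 in these regions. Its partner *Col6a3* was at 9.5 and 8.69 in LS and 8.78 and 9.29 in Pn, whose order reverses between the replicates, and had r of 0.1 with *Col6a1* and 0.3 with *Col6a2* over 48 regions.

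*Col8a2* and *Col5a3* shared Hb as their highest region. *Col8a2*, a chain of type VIII collagen, was at 7.96 and 7.45 in Hb and 7.08 and 7.52 in CA2/CA3, which overlap, and then at 6.69 and 7.21 in SO. CPu medial was lowest, at 5.17 and 5.54. *Col5a3* was at 8.9 and 8.98 in Hb, clear of SPa dorsal, at 8.19 and 8.31, and Hb exceeded the other 47 regions by 1.28 on average (standard error 0.09). Its second probe set, 1425984_at, varied little, with 6.44 in its highest region. *Col9a3*, a chain of type IX collagen, was at 9.36 and 9.75 in CA2/CA3 and 9.94 and 9.15 in LS, which overlap, and 9.25 and 9.3 in SCN, 8.86 and 8.63 in SO and 8.86 and 8.74 in ME. It was higher in the mean of SO, ME and SCN by 0.51 (adjusted p = 1.3e-11), and its partner *Col9a2* by 0.3 (adjusted p = 2.27e-05). *Col9a1* depended on its probe set. The one used was at 0.07 (adjusted p = 0.225). The other, 1428571_at, differed by 0.62 (adjusted p = 1.24e-13), with a mean of 7.14 in ME, against 5.87 in the other 45 regions. Markers of cells of the ventricle moved with some of these regions, and their part was not tested. The choroid plexus list was 1.85 above the 48-region mean in CA2/CA3, its highest region, and 0.37 in Hb, and the ependymal list was at 1.09 in Hb and 0.44 in CA2/CA3. Over the 45 regions *Col8a2* had r of 0.63 with the choroid plexus list and 0.69 with the ependymal list, *Col5a3* 0.19 and 0.65, and *Col9a3* 0.43 and -0.05. In LS both lists were near the mean, at -0.11 and -0.15.

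**Figure D5:**
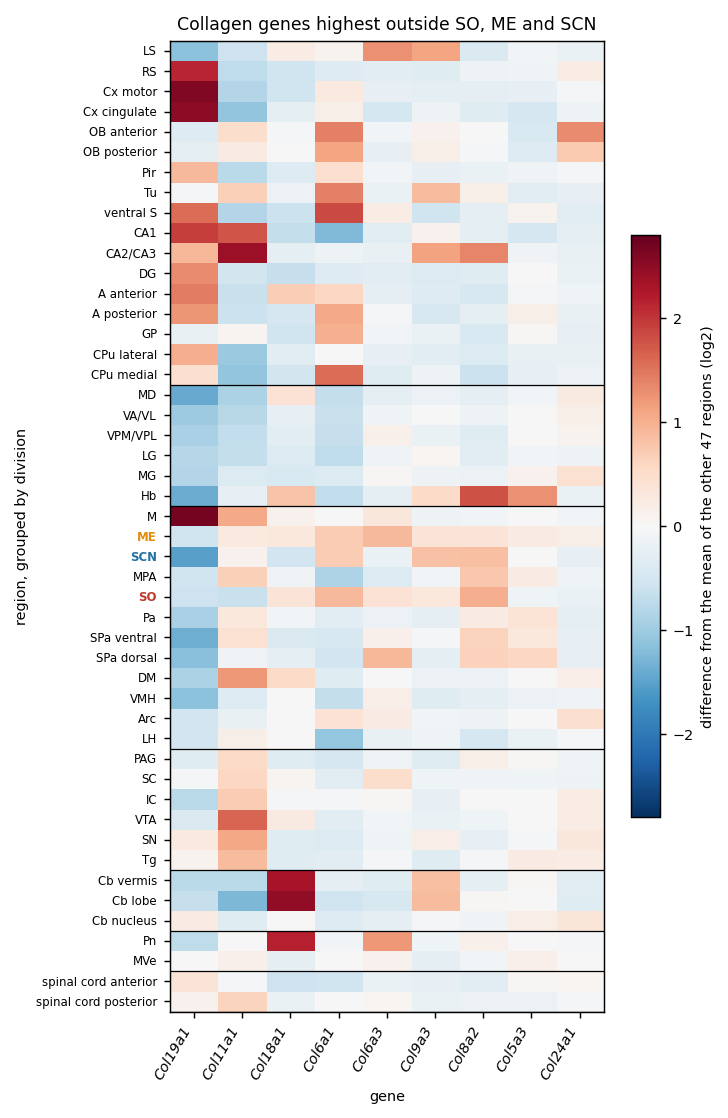
Difference from the mean of the other 47 regions (colour, log2 scale, warm for higher) for 9 collagen genes highest outside SO, ME and SCN (x axis) in 48 regions grouped by division (y axis, lines between divisions). *Col19a1* is highest in M and the cortical regions, *Col11a1* in CA2/CA3, CA1 and VTA, and *Col18a1* in Cb lobe, Cb vermis and Pn.

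Outside the 48 regions, the 2 arrays of the retina lay above all 96 arrays for 19 collagen genes (45.2%, background 13.9%), those of the pineal for 10 (23.8%, background 10.9%) and those of the pituitary for 4 (9.52%, background 8.62%).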

How the data were processed

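RNA of each region was measured with 2 Affymetrix Mouse Genome arrays. The deposited values are log2 expression values that the authors computed from the probe intensities with RMA, which corrects background, quantile-normalizes the arrays and summarises probe sets. The RMA version is not given in the sources used here. Of 45101 probe sets, 64 controls were left out, and of the others 34945 named 1 gene symbol, 932 several and 9160 none. Of the single-symbol probe sets, 34741 had their gene ID in the RefSeq table, and 0 symbols changed. All probe sets entered a limma (3.58.1, R 4.3.3) model with 1 coefficient per region (48 residual degrees of freedom), and p-values were adjusted by Benjamini and Hochberg's method across the 45037 probe sets (threshold 0.05). Summaries and plots used Python 3.11.15, numpy 2.4.6, pandas 2.3.3 and matplotlib 3.10.9. Replicates are pools, so p-values measure only the spread between 2 pools, which may be technical. Genes named with their arrays were, of those highest in SO, ME or SCN, the 8 with the largest difference between these 3 regions and the other 45, and, of those highest in another region, all whose top region had a mean of 7 or more and lay at least 1 above the other 47. Partner chains, *Col11a1* and *Col24a1* (which the study's supplement lists as region marker candidates) and up to 4 genes of each other list were added. *Col11a2* and *Col25a1* were chosen after their values were seen. *Col10a1*, *Col12a1*, *Col14a1*, *Col16a1*, *Col22a1* and *Col27a1* are also given with arrays and fall under none of these rules. For all of them and for the 8 genes, the p-values cannot be taken as independent of the choice. The scripts were tested on simulated data. The members, gene lists and tests were chosen with earlier results of these data known. Alternatives were a replicate block, cyclic loess normalization, only probe sets that reached 7 in some region, a variance trend with robust estimation, all 51 regions in the model, regions of the same sampling period, another probe set per gene and leaving out each array.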

Additional observations from a re-analysis of the deposited data

Results flagged for a closer look

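The retina, pituitary and pineal lie outside the comparisons of the 48 regions. In the retina, 19 of 42 collagen genes (45.2%) had both arrays above all 96 arrays of the 48 regions, where 13.9% of all genes had. *Col17a1* was at 9.44 and 10.83 in the retina, against at most 5.29 in the 96 arrays, *Col8a2* at 11.06 and 11.4, against 7.96, and *Col3a1* at 12.46 and 12.39, against 9.9. The same 2 arrays held the cornea keratin gene *Krt12* at 13.95 and 14, against 9.74, the skeletal muscle gene *Acta1* at 14 and 13.91, against 8.16, and the pituitary hormone gene *Prl* at 14.34 and 13.44, against 6.68. The part of other tissues in the retina values was not tested.

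In the pineal, 10 collagen genes (23.8%) lay above all 96 arrays, where 10.9% of all genes did. *Col8a1*, a chain of type VIII collagen, was at 12.79 and 13.01 in the pineal, against at most 7.78, and *Col7a1*, of the anchoring fibrils of epithelia, at 9.84 and 10.32, against 8.57. Of 3 leptomeningeal genes, *Lum* was at 11.28 and 11.17 in the pineal, against 10.51, while *Dcn*, at 12.59 and 12.47, against 12.94, and *Mgp*, at 12.01 and 12.17, against 12.39, lay below the highest of the 96 arrays. Their part in these values was not tested. In the pituitary, 4 collagen genes did so (9.52%), near the 8.62% of all genes, with *Col13a1* at 8.67 and 8.43, against 7.79, and *Col1a2* at 11.56 and 11.76, against 11.01.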

How the results depend on the processing

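Of 170 alternatives to 18 counts of collagen genes, 155 stayed within 1.5 times the reported count. No share of all genes is given for these alternatives, so they show how the counts moved and not how they compare with all genes. Among regions of the same sampling period, 1 gene was lower in SO, 0 in ME and 7 in SCN, and the *Col11a1* difference of SCN turned to -0.58. With cyclic loess normalization 7 were lower in SCN, and with the probe set of the highest regional mean in any region 4 were lower in SO. With single arrays left out, 1 to 2 genes were lower in the mean of SO, ME and SCN, 1 in SO, 0 to 1 in ME and 4 to 8 in SCN, 3 to 7 were higher and 7 to 10 lower in SO than in ME, and 13 to 21 were higher in SO than in SCN. The cause of these changes was not tested, except that a region left with 1 array is assumed to vary like the others and has a larger error. Of 638 alternatives to 72 differences of single genes, 616 kept direction and side of the threshold, 16 fell below it, 5 passed it and 1 turned direction. The division by highest region was least stable, with 19 genes highest in SO, ME or SCN, against 17 with cyclic loess normalization or another probe set and 13 and 16 without replicate 1 and 2. For 5 genes no regional mean reached 7, where the arrays cannot tell a low level from background.

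With the replicate number as a block, the counts were 23 higher and 2 lower in the mean of SO, ME and SCN, 21 and 2 in SO, 25 and 1 in ME, and 11 and 12 in SCN, the same as without it. The deviations of same-numbered arrays had correlations of -0.188 (ME and SCN), -0.0461 (SO and ME) and -0.0539 (SO and SCN). These regions are of different sampling periods, so the values cannot tell whether the numbers pair other samples. Over all 1128 pairs of regions, 282 correlations were above 0.1 and 234 below -0.1, with a mean of 0.00853.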
